A study of Bos indicus x Bos taurus with 11 samples.

Results

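The KCNQ1 domain genes are 10 genes on bovine chromosome 29, lying between positions 48477356 and 49284265 of build ARS-UCD1.2. They were chosen by name and position: KCNQ1, LOC112444897 inside its span, and genes on both sides, which are CDKN1C, NAP1L4, CARS and OSBPL5 on one side and TSSC4, CD81, LOC112444889 and TSPAN32 on the other. The list is not every gene between those positions: 3 other annotated genes of the table of total counts lie there, LOC510798 (between OSBPL5 and CARS, well expressed and described at the end), LOC101902361 and TRPM5 (both between KCNQ1 and TSSC4, with at most 5 counts in any library). All 10 of the 10 names were found among the 27398 genes and assembled loci of the table of total counts. Of these, 8 also had an entry among the 9716 genes of the table of allelic reads, from which LOC112444897 and CDKN1C were missing.

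Total RNA, depleted of ribosomal RNA, was sequenced from skin fibroblasts grown as primary cultures from fetal calves on day 105 of gestation, with 1 culture and 1 library per fetus. The 6 LOS fetuses (3 females, numbered 1 to 3, and 3 males, numbered 4 to 6) had large offspring syndrome, a fetal overgrowth condition. They were conceived by assisted reproduction and chosen for a body weight above the 97th centile of controls. The 5 control fetuses (CON_B: females 1 and 2, males 3 to 5) were conceived by artificial insemination and labelled healthy. Overgrowth and the method of conception therefore cannot be told apart in any comparison of LOS with control. Each fetus was an F1 cross of the Brahman breed (Bos taurus indicus) with the Angus breed (Bos taurus taurus), and the authors sorted reads over sites that differ between the breeds by parental allele. The labels do not say which breed was the dam of each fetus, and if all crosses ran 1 way, an effect of the parent and an effect of the breed cannot be told apart.

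In human and mouse, this region is an imprinted domain. A long noncoding RNA, KCNQ1OT1, is transcribed from the paternal chromosome out of an intron of KCNQ1, in antisense to it, and neighbouring genes on that chromosome are kept silent, several of them only in the mouse placenta. CDKN1C, a brake on the cell cycle, is a gene whose loss can cause Beckwith-Wiedemann syndrome, a human overgrowth disorder, and loss of methylation at the KCNQ1OT1 promoter is a common finding in its patients. No gene in the deposited tables carries the name KCNQ1OT1, and LOC112444897 is given here only by its identifier.

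On the map of the domain, KCNQ1 (minus strand, 48760248 to 49139382) spans 379135 bp. LOC112444897 (plus strand, 48905879 to 48921626, annotated as protein coding) lies wholly within it on the opposite strand. On the side of lower coordinates, all on the plus strand, are CDKN1C (48728468 to 48730923), NAP1L4 (48624253 to 48676966), CARS (48561975 to 48614662) and OSBPL5 (48477356 to 48518350). Beyond KCNQ1 lie TSSC4 (49191068 to 49194829), CD81 (49197099 to 49216812) and TSPAN32 (49261072 to 49284265) on the minus strand, and LOC112444889 (49230640 to 49262970), a long noncoding RNA gene, on the plus strand. TSPAN32 and LOC112444889 overlap by 1899 bp. The sources used here do not give whether the authors counted reads by strand, so reads of KCNQ1 and LOC112444897, and of TSPAN32 and LOC112444889, cannot be told apart where these genes overlap.

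**Figure D1:**
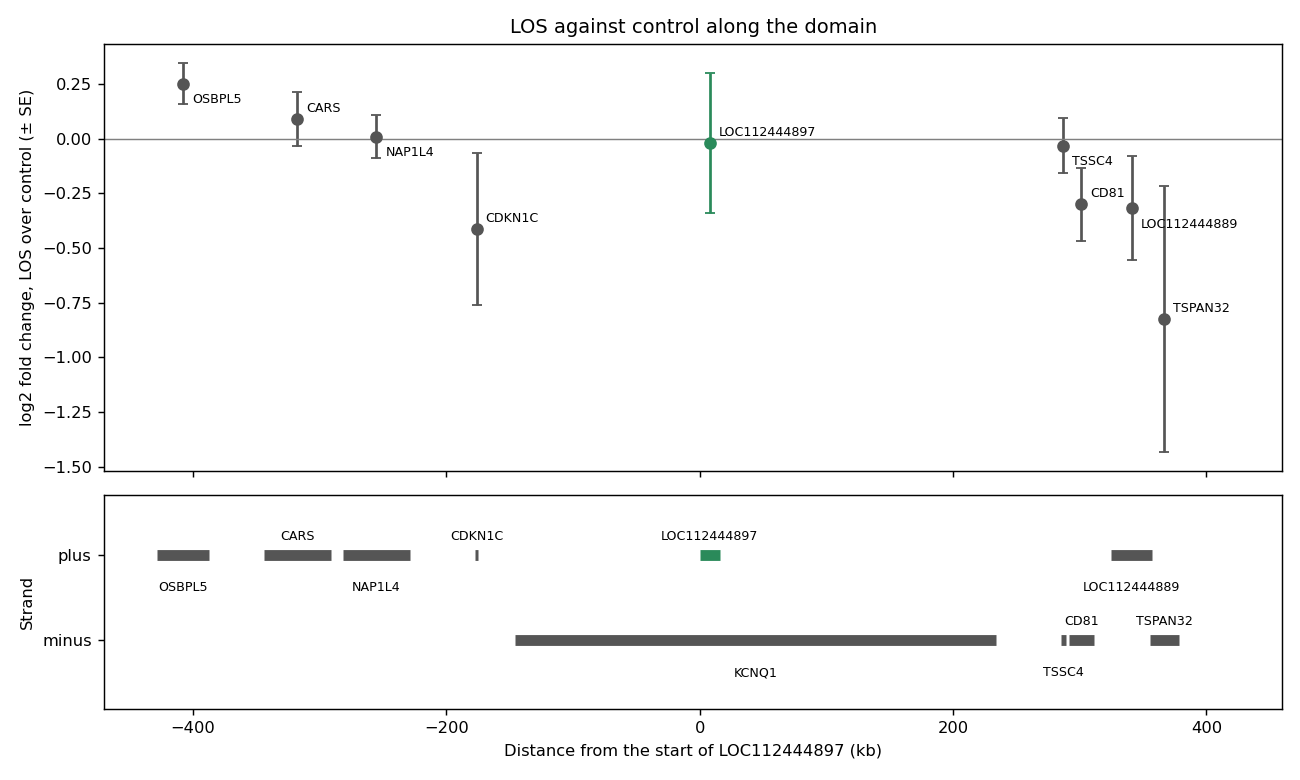
The upper panel plots the log2 fold change of LOS over control (± SE) of the 9 tested genes at their midpoints, and the lower panel draws all 10 genes by strand, both against distance in kb from the start of LOC112444897 (green). The points nearest to LOC112444897 and those on either side stay within 1 log2 unit of 0, with OSBPL5 highest at 0.25 and TSPAN32 lowest at -0.82.

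The cultures expressed fibroblast genes at high levels. The 9 fibroblast markers (such as COL1A1, COL1A2 and VIM) summed to 57762 to 71174 counts scaled to library size (CPM) in LOS and to 56092 to 71289 CPM in controls. The 4 keratinocyte markers in the table summed to 2.41 to 24.2 CPM in LOS and 3.56 to 10.7 CPM in controls, the 4 endothelial ones to 0.973 to 2.69 and 1.77 to 3.34 CPM, and the 3 leukocyte ones to at most 0.819 and 1.13 CPM. The 3 pericyte markers summed to 124.1 to 266.7 CPM in LOS and 109.7 to 251.0 CPM in controls, most of it CSPG4. The 3 adipocyte ones reached at most 1.06 and 1.05 CPM, and DES, of muscle, 0.146 and 0.281 CPM. PMEL and NGFR, of melanocytes and Schwann cells, summed to 8.23 to 45.2 CPM in LOS and 4.08 to 179.9 CPM in controls, most of it PMEL. The mean of NGFR alone was 0.861 ± 0.748 CPM over LOS libraries and 5.95 ± 5.88 CPM over control libraries, a log2 fold change of LOS over control of -2.75 ± 1.00 (SE; edgeR unadjusted p = 0.0188, adjusted p = 0.932), and its part in the values of the members was not tested. Total counts per library ran from 12084822 to 19297167, and allelic reads from 2198572 to 3904531.

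KCNQ1, the pore-forming subunit of a voltage-gated potassium channel, had almost no counted expression in these fibroblasts. Its expected counts (reads estimated for the gene) were 2, 1, 1, 1, 0 and 0 in LOS fetuses 1 to 6, against 2, 1, 0, 5 and 1 in controls 1 to 5. It failed the filter on low counts and was not tested for a difference in total counts.

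Reads assigned to the alleles of KCNQ1 gave another picture, which divided the LOS libraries. LOS fetuses 1, 2 and 3 had 981, 189 and 1021 allelic reads at KCNQ1, and LOS fetuses 4, 5 and 6 had 0, 7 and 0, against 6, 4, 0, 22 and 0 in controls 1 to 5. The 3 libraries with many reads are the 3 LOS females, and their lowest value was above the highest of the other 8 libraries. The 2 control females, with 6 and 4 reads, were among the low libraries. Per M total counts, LOS libraries averaged 28.8 ± 39.7 allelic reads and controls 0.358 ± 0.480 (SD, n = 6 and 5). The exact two-sided permutation test over libraries gave p = 0.268, where 0.00216 was the smallest possible, and 3 of the 6 LOS libraries were within the control range. This measure was chosen after its values were seen. The difference of 28.4 reads per M was 17.97 without LOS fetus 1. Only reads over sites that differ between the breeds are sorted, so allelic totals need not follow a gene's level between fetuses. DHCR7, another gene of chromosome 29, stood at 97.5 to 353 CPM in LOS. It was listed at 0 allelic reads in LOS fetuses 1, 2 and 5, and at 1699 maternal and 2009 paternal reads in LOS fetus 6. The part of such sites in the KCNQ1 totals was not tested.

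The allelic reads exceeded the counted expression of KCNQ1 by far, by 981 reads against an expected count of 2 in LOS fetus 1. Few genes showed this: 57 of the 9542 genes in both tables (0.597%), KCNQ1 among them, had at least 100 allelic reads and more than 100 times the expected count in 1 or more libraries, with expected counts under 1 taken as 1. The sources used here do not give how the reads of the allelic table were chosen. An entry of 0 there does not show that reads were absent, because 1 allele was at 0 in only 6 of the 79210 combinations of gene and library with reads.

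Allelic reads listed at KCNQ1 came more often from the paternal allele. That both alleles were read says little, because the allelic table holds almost no entry with 1 allele at 0. These reads cannot be told apart from reads of LOC112444897 where the 2 genes overlap. The maternal share was 31.1% in LOS fetus 1 (305 of 981 reads, 95% Clopper-Pearson interval 28.2 to 34.1%), 35.98% in LOS fetus 2 (68 of 189, 29.1 to 43.3%) and 43.8% in LOS fetus 3 (447 of 1021, 40.7 to 46.9%). All 3 intervals lie under 50%, and those of LOS fetuses 1 and 3 do not overlap. These intervals cover counting error only, because reads are not independent molecules. The remaining libraries had few reads: 1 maternal of 7 in LOS fetus 5, against 1 of 6, 2 of 4 and 3 of 22 in controls 1, 2 and 4. Paternal reads outnumbered maternal reads in 6 of the 7 libraries with reads, and control 2 had equal numbers. The mean maternal share was 31.3 ± 12.5% in LOS (n = 4) and 26.8 ± 20.2% in controls (n = 3), with an exact permutation p of 0.686 where 0.0286 was the smallest possible. KCNQ1 had too few reads in most libraries for the allelic model fitted across genes.

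LOC112444897, the gene inside KCNQ1, was well expressed in all 11 libraries and did not separate the groups. Its level was 346, 139, 337, 104, 235 and 166 CPM in LOS fetuses 1 to 6, against 270.3, 160.0, 130.4, 285 and 212 CPM in controls 1 to 5. LOS fetuses 1 and 3 were the highest of all libraries and LOS fetus 4 the lowest, so the LOS range enclosed the control range. Group means were 221 ± 102 CPM in LOS and 211 ± 67.1 CPM in controls. The log2 fold change of LOS over control, fitted with sex as a term, was -0.02 ± 0.32 (SE), and its Benjamini-Hochberg adjusted p was 0.996 in the quasi-likelihood test of edgeR. It was 0.07 without the sex term. In bulk cultures, a change in the number of expressing cells and a change in RNA per cell cannot be told apart. A missing allelic entry was not unusual for a gene at this level, as 324 of the 1154 genes (28.1%) with at least the lowest count of LOC112444897 in every library had none. Entries with 1 allele at 0 are almost absent from the allelic table, so genes read from 1 allele alone may be missing there. The allelic state of LOC112444897, and of CDKN1C, is therefore not known here.

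KCNQ1 allelic reads were also set beside the LOC112444897 count of the same library. These shares are not corrected for length or for the sites at which reads can be sorted, which may differ between fetuses. At NAP1L4, allelic reads came to 28.1% of the gene's own count in control 3 and 72.5% in LOS fetus 6, the lowest and highest libraries. As a share of the LOC112444897 count, KCNQ1 allelic reads came to 23.2%, 9.84% and 22.7% in LOS fetuses 1, 2 and 3. In LOS fetuses 4, 5 and 6 they came to 0%, 0.224% and 0%. Controls 1 to 5 had 0.149%, 0.124%, 0%, 0.380% and 0%. LOS fetuses 1 and 3, the highest in LOC112444897 at 346 and 337 CPM, also had the most KCNQ1 reads, 981 and 1021. LOS fetus 2, at 139 CPM of LOC112444897, had 189 KCNQ1 reads, whereas control 4, at 285 CPM, had 22. Whether LOC112444897 was a source of the KCNQ1 reads was not tested. Because 3 libraries stood apart and 4 of the other 8 were listed at 0 reads, no correlation between KCNQ1 reads and LOC112444897 is read here.

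**Figure D2:**
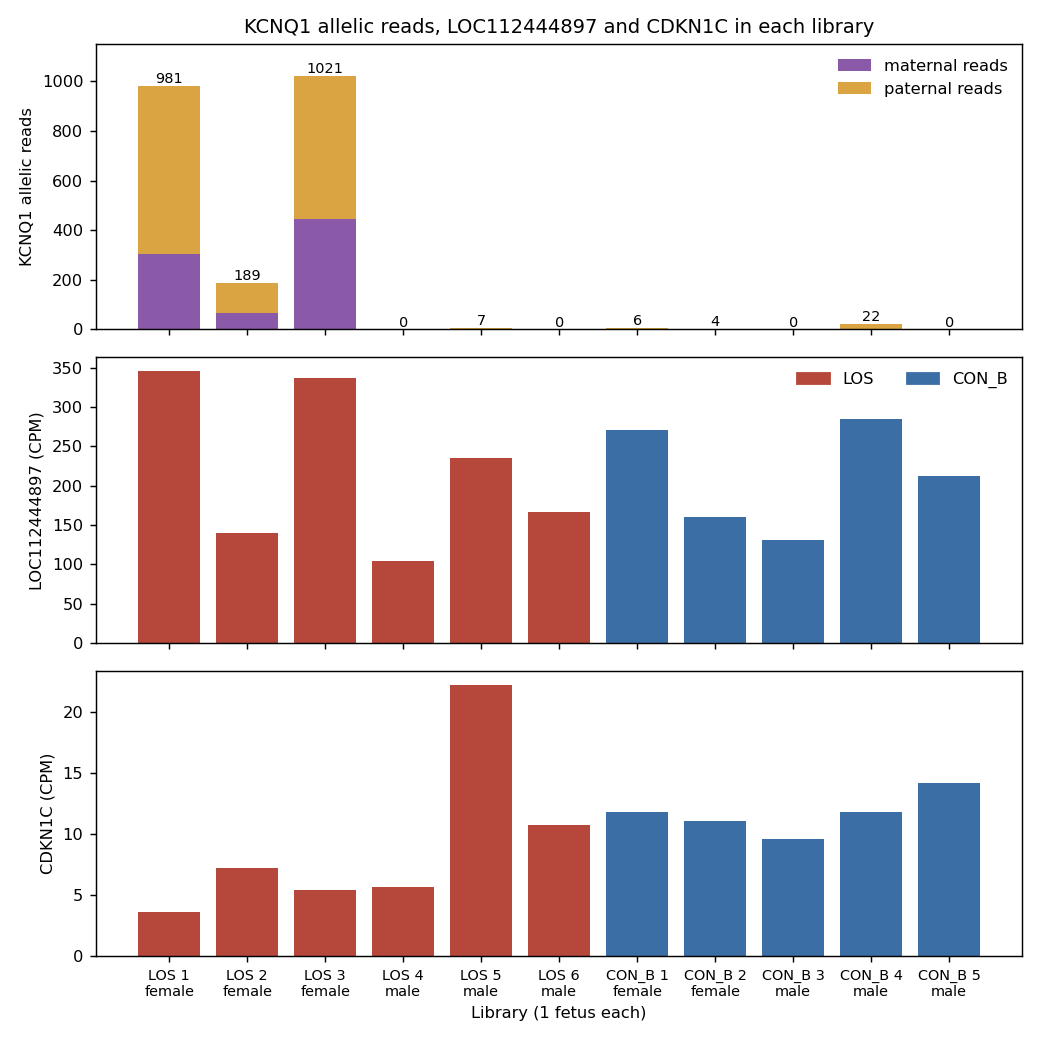
Bars show, for each of the 11 libraries, the allelic reads at KCNQ1 split into maternal and paternal reads (top), the level of LOC112444897 in CPM (middle) and that of CDKN1C in CPM (bottom). The LOS females have 981, 189 and 1021 KCNQ1 reads, while the other 8 libraries have 0 to 22. LOC112444897 spans 104 to 346 CPM in LOS and 130.4 to 285 CPM in controls.

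CDKN1C, which encodes the cyclin-dependent kinase inhibitor p57, lay below the control range in 4 of the 6 LOS libraries but not in the others. Its level was 3.60, 7.19, 5.39, 5.71, 22.2 and 10.7 CPM in LOS fetuses 1 to 6, against 11.8, 11.1, 9.58, 11.8 and 14.1 CPM in controls 1 to 5. LOS fetuses 1 to 4 were below every control, LOS fetus 6 fell within the control range, and LOS fetus 5 was above every control. LOS averaged 9.14 ± 6.84 CPM and controls 11.7 ± 1.64 CPM. The log2 fold change was -0.41 ± 0.35 and did not pass the test (edgeR quasi-likelihood with Benjamini-Hochberg adjustment, adjusted p = 0.932). It was -0.80 without LOS fetus 5 and -0.26 without LOS fetus 1, and the lowest adjusted p of edgeR with any 1 library left out was 0.816.

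The LOS over control difference of CDKN1C did not pass the test for a contrast between the sexes. By level, the 3 LOS females stood below the 2 control females. How many of all genes separate so few libraries likewise was not computed, so nothing is read from that separation. The LOS females are described first. They averaged 5.39 ± 1.79 CPM (n = 3) and the control females 11.4 ± 0.496 CPM (n = 2), a log2 fold change of -1.08 ± 0.47. LOS males averaged 12.9 ± 8.45 CPM and control males 11.8 ± 2.27 CPM (n = 3 each), a log2 fold change of 0.12 ± 0.42. The difference between the sexes in the log2 fold change of LOS over control was -1.20 ± 0.63. Its unadjusted p was 0.0855 and its adjusted p 0.923 in edgeR's quasi-likelihood test of the group by sex term. That test called 0 of 16904 genes (0.0%), with 821 genes at an unadjusted p under 0.05 (4.86%). The split by sex was added after the data were seen, and the LOS females are also the libraries with many KCNQ1 allelic reads.

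Across the 11 libraries no relation of CDKN1C to LOC112444897 passed the test. Pearson's r was -0.0742 (permutation p = 0.836, unchanged by adjustment over the 2 relations computed) and Spearman's rho 0.0 (permutation p = 1.0). LOS fetuses 1 and 3 combined the highest LOC112444897 with the lowest CDKN1C levels. Without them, the libraries farthest from the median of LOC112444897, r was 0.601 (permutation p = 0.0741). The pooled value therefore rests on those libraries, and neither value passed the test.

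**Figure D3:**
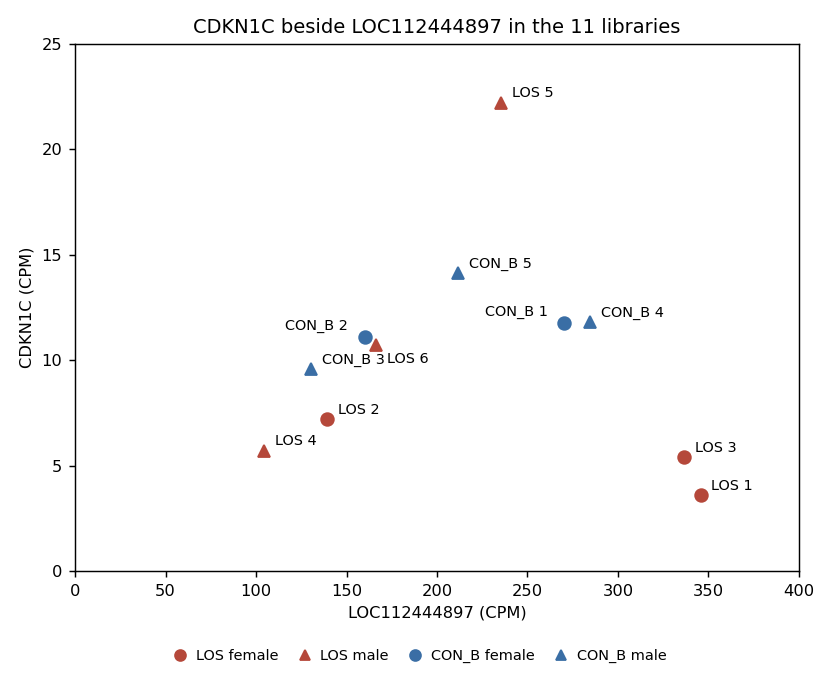
Each point is 1 library, with the level of LOC112444897 on the horizontal axis and that of CDKN1C on the vertical axis, both in CPM. LOS 1 and LOS 3 lie at the lower right, at 346 and 337 CPM of LOC112444897 and 3.60 and 5.39 CPM of CDKN1C. LOS 5 lies highest, at 22.2 CPM of CDKN1C.

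The other inhibitors of the same family and the cell cycle genes did not pass the test either. Of 16 genes (inhibitors, cyclins, kinases and proliferation markers), 0 were called. By sign, 4 were higher and 12 lower in LOS, beside 8527 higher and 8377 lower of all 16904 genes tested. Whether the 16 genes vary together across libraries was not tested, so they are not counted as separate observations. Their median log2 fold change was -0.13 against 0.00 over all genes tested. CDKN1A and CDKN1B, which encode p21 and p27, had log2 fold changes of 0.25 ± 0.25 and -0.02 ± 0.15. The smallest p in this list belonged to PCNA, the replication clamp, at -0.46 ± 0.24, and MKI67, a proliferation marker, was at -0.58 ± 0.39. MKI67 stood at 180.3, 36.2, 86.5, 79.5, 48.6 and 63.7 CPM in LOS fetuses 1 to 6, against 129.9, 103, 55.0, 131 and 165 CPM in controls 1 to 5. The groups overlapped in MKI67, with LOS fetus 1 the highest and LOS fetus 2 the lowest library, and both of these were below every control in CDKN1C. The part of proliferation in the CDKN1C levels was not tested.

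No member of the domain passed the test between LOS and control in its total level. Of the 9 members that passed the filter on low counts, 0 were called at an adjusted p under 0.05. By sign, 3 were higher and 6 lower in LOS, beside 8527 higher and 8377 lower of all genes tested. The median log2 fold change of the members was -0.03, beside 0.00 over the 16904 genes tested. Over all genes, edgeR called 0 of 16904 genes (0.0%), 751 genes (4.44%) had an unadjusted p under 0.05, limma voom called 0 and DESeq2 called 5, none of them a member. Levels of all LOS libraries exceeded all controls for 15 genes (0.0887%) and lay below them for 23 genes (0.136%), and 0 members were among either.

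**Figure D4:**
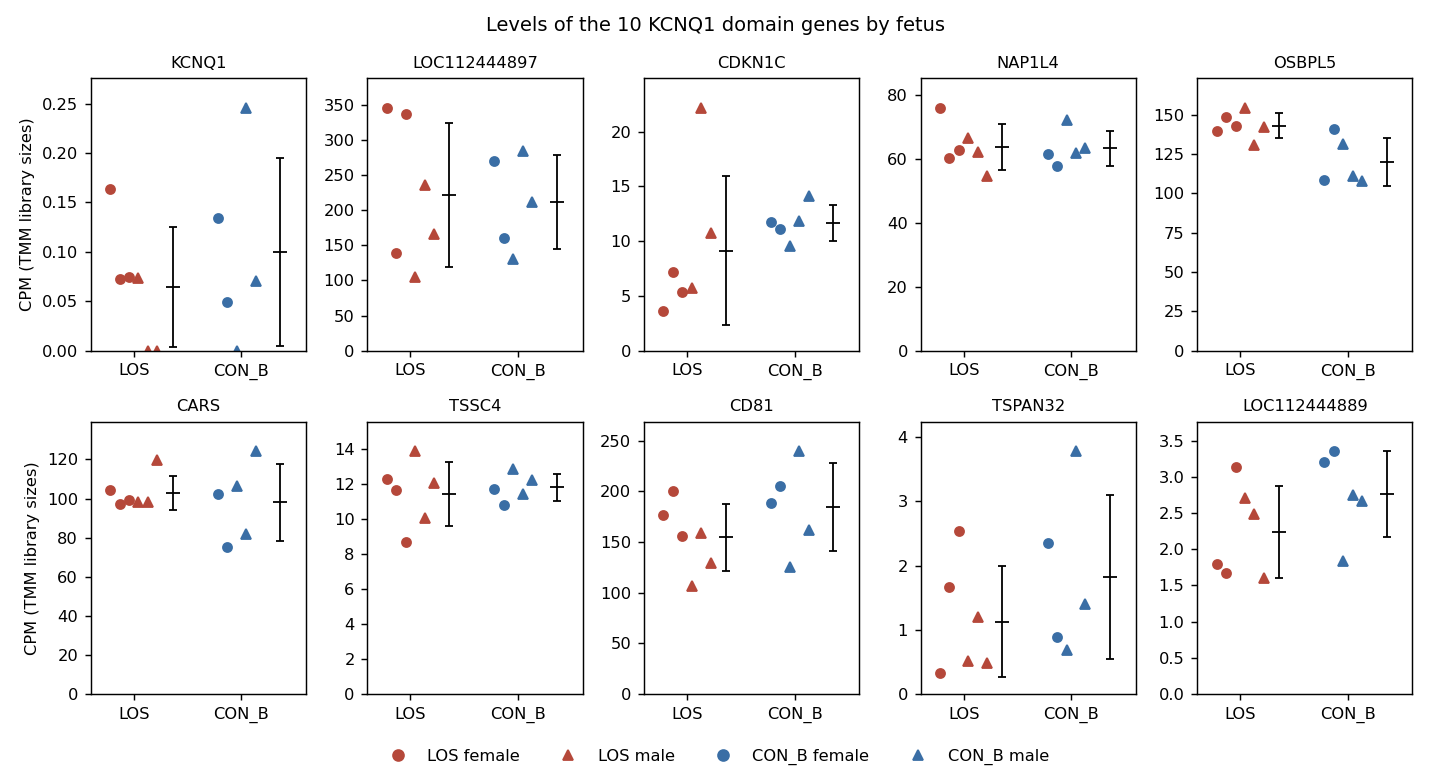
Panels show the level of each of the 10 genes in CPM, 1 point per fetus (circles female, triangles male), with LOS left of CON_B, and bars give mean ± SD. Points of both groups overlap in all panels. OSBPL5 has the highest LOS mean relative to controls, and CDKN1C has 4 LOS points below the lowest control and 1 above the highest.

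OSBPL5, a lipid transfer protein of the oxysterol-binding family, was the member nearest to a change. Its level in LOS ran from 131 through a median of 143 to 155 CPM, and controls 1 to 5 had 109, 141, 131, 111 and 108 CPM. All but 1 LOS library exceeded 139 CPM, and 1 control did. Means were 143 ± 8.06 CPM in LOS and 120.0 ± 15.1 CPM in controls, a log2 fold change of 0.25 ± 0.09 with an unadjusted p of 0.0197. The adjusted p of edgeR's quasi-likelihood test was 0.932, and OSBPL5 was the only member with an unadjusted p under 0.05.

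CARS, a cysteinyl-tRNA synthetase, and NAP1L4, a histone chaperone, lie between OSBPL5 and CDKN1C. CARS ran from 97.4 through a median of 98.8 to 119.7 CPM in LOS and from 75.2 through 102 to 124 CPM in controls, with a log2 fold change of 0.09 ± 0.12. NAP1L4 ran from 54.6 through 62.4 to 76.0 CPM in LOS and from 57.6 through 61.8 to 72.2 CPM in controls, with a log2 fold change of 0.01 ± 0.10. For both genes the groups overlapped over most of their ranges. Neither passed the test, at adjusted p of 0.948 and 0.993 by edgeR.

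On the far side of KCNQ1, TSSC4, a factor in the assembly of spliceosomal particles, had overlapping groups. It ran from 8.68 through 11.9 to 13.9 CPM in LOS and from 10.8 through 11.7 to 12.8 CPM in controls, a log2 fold change of -0.03 ± 0.12. CD81, a tetraspanin of the cell surface, had 107 through a median of 157 to 200.3 CPM in LOS, against 189, 205, 126, 240.1 and 162 CPM in controls 1 to 5. Its groups overlapped, with LOS fetus 4 the lowest and control 4 the highest library. Means were 155 ± 33.3 CPM in LOS and 184 ± 43.3 CPM in controls, a log2 fold change of -0.30 ± 0.17 that did not pass the test (edgeR adjusted p = 0.932) and was -0.14 without control 4.

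TSPAN32, a tetraspanin known mostly from blood cells, and LOC112444889 were low. TSPAN32 had expected counts of 4, 23, 34, 7, 16 and 9 in LOS fetuses 1 to 6, against 35, 18, 10, 77 and 20 in controls 1 to 5. LOS fetus 1 was the lowest and control 4 the highest library, and the groups overlapped. The log2 fold change of -0.82 ± 0.61 was -0.28 without control 4. LOC112444889 averaged 2.23 ± 0.635 CPM in LOS cultures and 2.77 ± 0.598 CPM in control cultures, a log2 fold change of -0.32 ± 0.24. Neither passed the test, at an adjusted p of 0.932 each by edgeR.

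No member passed the test between the sexes. Between males and females, edgeR called 8 of 16904 genes (0.0473%), and 0 of the 9 members tested. CDKN1C had the largest log2 difference of male over female among members, 0.69 ± 0.35 (unadjusted p = 0.0757, adjusted p = 0.999), which was 0.32 without LOS fetus 5. CD81 had -0.31 ± 0.17 and LOC112444897 -0.41 ± 0.32.

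Of the members with both alleles read, CD81 showed a difference between maternal and paternal reads in both groups. Whether it went with the parent or with the breed was not tested. Its maternal share was 39.5%, 37.0%, 40.1%, 41.6%, 46.7% and 44.3% in LOS fetuses 1 to 6, against 43.8%, 47.8%, 37.0%, 43.1% and 42.9% in controls 1 to 5. Paternal reads exceeded maternal reads in 11 of 11 libraries, on 346 to 1426 reads each. The same held for 144 of the 4272 genes of the allelic fit with reads in all libraries (3.37%). The log2 ratio of maternal over paternal reads was -0.49 ± 0.09 in LOS (adjusted p = 0.00059) and -0.41 ± 0.09 in controls (adjusted p = 0.00546), in edgeR's quasi-likelihood test, adjusted by Benjamini-Hochberg. Differences between alleles were common in this table. In LOS 595 of 5696 genes were called (10.4%), and 268 of them (4.71% of genes tested) had the maternal allele lower. In controls 523 were called (9.18%), and 211 (3.7%) had it lower.

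In LOS, 2 of the 6 members in this fit were called, CD81 and LOC112444889, and in controls 1 of 6, CD81. In controls the adjusted p of CD81 was 0.0584 with limma on the log2 ratio of each library. The maternal share of CD81 averaged 41.5 ± 3.49% in LOS and 42.9 ± 3.86% in controls, and its difference was smaller than the spread between fetuses (exact permutation p = 0.535).

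LOC112444889 had a maternal share of 36.4%, 37.5%, 50%, 35.7%, 28.6% and 37.3% in LOS fetuses 1 to 6, against 35.7%, 51.2%, 43.3%, 54.8% and 46.7% in controls 1 to 5. The shares rest on 11 to 75 allelic reads per LOS library and 28 to 82 per control. Of the LOS libraries, 5 were below 40% and 1 at 50%, while 1 control was below 40%. The log2 ratio of maternal over paternal reads was -0.71 ± 0.23 in LOS (edgeR adjusted p = 0.0448) and -0.13 ± 0.21 in controls (edgeR adjusted p = 0.879). The call in LOS was lost without LOS fetus 1, 2, 4, 5 or 6, at adjusted p of 0.0734, 0.0882, 0.123, 0.0978 and 0.137.

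The groups themselves were not shown to differ in the share of LOC112444889. The mean share was 37.6 ± 6.93% in LOS and 46.4 ± 7.38% in controls, a difference of -8.77 percentage points (exact permutation p = 0.0758). Its log2 ratio differed by -0.58 ± 0.31 between LOS and control (edgeR unadjusted p = 0.0717, adjusted p = 0.999). Leaving out LOS fetus 3 or control 1 gave exact permutation p of 0.0397 and 0.0333, with no adjustment.

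OSBPL5 leaned to the maternal allele without passing the test. Its maternal share was 55.0%, 61.3%, 60.5%, 53.8%, 44.7% and 51.9% in LOS fetuses 1 to 6, against 53.1%, 54.3%, 51.5%, 57.6% and 60.1% in controls 1 to 5. Maternal reads outnumbered paternal reads in 10 of 11 libraries, the exception being LOS fetus 5. The log2 ratio was 0.26 ± 0.10 in LOS and 0.30 ± 0.11 in controls, with edgeR adjusted p of 0.11 and 0.0871. Without LOS fetus 5 the LOS ratio was 0.36, with an edgeR adjusted p of 0.0256.

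At NAP1L4, CARS and TSSC4, reads of the alleles did not differ past the test. The maternal share averaged 49.6 ± 2.75% in LOS and 52.3 ± 2.34% in controls for NAP1L4, and 53.0 ± 4.17% in LOS and 52.2 ± 4.51% in controls for CARS. For TSSC4, on fewer reads, it averaged 54.3 ± 6.89% in LOS and 56.1 ± 7.73% in controls. The log2 ratio of maternal over paternal reads at TSSC4 was 0.32 ± 0.17 in LOS and 0.37 ± 0.17 in controls, above those of OSBPL5 in size but with larger errors (edgeR adjusted p = 0.258 and 0.201). It was 0.19 in LOS without LOS fetus 4, and 0.57 in controls without control 3, with an edgeR adjusted p of 0.0517. Maternal reads outnumbered paternal reads in 8, 9 and 8 of 11 libraries at NAP1L4, CARS and TSSC4, and none was called in either group. TSPAN32 had allelic reads in 2 LOS libraries, 8 maternal of 20 in LOS fetus 2 and 35 of 52 in LOS fetus 3, and a maternal share of 33.3 to 55.1% in the 5 controls.

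**Figure D5:**
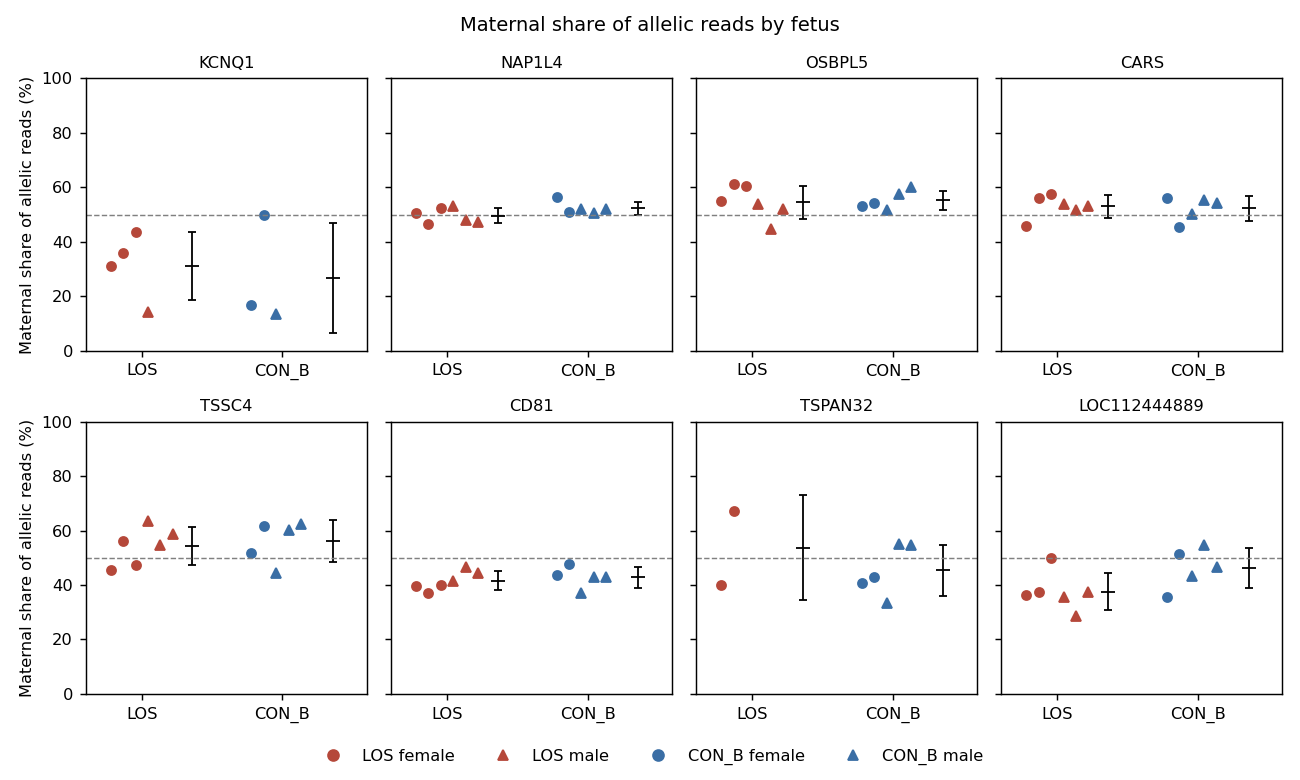
Panels show the maternal share of allelic reads in percent for the 8 members with allelic reads, 1 point per fetus with reads (circles female, triangles male), LOS left of CON_B, with mean ± SD and a dashed line at 50%. All 11 CD81 points lie below the line, from 37.0 to 47.8%, while NAP1L4, CARS and TSSC4 have points on both sides of it.

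No member differed between LOS and control in its allelic share by the fit across genes. EdgeR called 0 of 5696 genes (0.0%) and limma called 0, with 246 genes at an unadjusted p under 0.05 by edgeR (4.32%), and 0 of the 6 members fitted were called. Exact permutation p of the share by library were 0.119 for NAP1L4, 0.827 for OSBPL5, 0.753 for CARS, 0.695 for TSSC4 and 0.524 for TSPAN32 (n = 2 and 5). These p-values carry no adjustment over the members.

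Each allele was also compared by itself, and no member passed the test for either. For the maternal allele edgeR called 0 of 4245 genes (0.0%), with 197 at an unadjusted p under 0.05 (4.64%). For the paternal allele it called 0 of 4250 (0.0%), with 188 (4.42%). At LOC112444889 the mean of the maternal allele was 0.849 ± 0.376 CPM in LOS libraries and 1.29 ± 0.353 CPM in controls, a log2 fold change of -0.66 ± 0.30 (edgeR unadjusted p = 0.0485, adjusted p = 0.977). Its paternal allele averaged 1.39 ± 0.369 CPM in LOS cultures and 1.47 ± 0.405 CPM in control cultures (-0.09 ± 0.25). OSBPL5 had log2 fold changes of 0.22 ± 0.13 for the maternal and 0.27 ± 0.14 for the paternal allele. OSBPL5's maternal value was 0.14 without control 1. CD81 had -0.35 ± 0.19 for the maternal and -0.26 ± 0.17 for the paternal allele, which were -0.19 and -0.10 without control 4.

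Other genes within and around the domain on chromosome 29 did not pass the test between the groups either. Of 22 genes, 3 of them inside the span of the members, 18 were in the table and 7 were tested, with 4 higher and 3 lower in LOS by sign and 0 called. LSP1 had the smallest p of these, with a log2 fold change of -0.96 ± 0.63 (edgeR adjusted p = 0.932). H19, a maternally expressed noncoding RNA in human and mouse, had a log2 fold change of -1.52 ± 1.10, and IGF2, the growth factor gene beside it, -0.84 ± 1.18. H19 stood at 1980, 344, 404, 90.1, 346 and 12.5 CPM in LOS fetuses 1 to 6, against 1126, 166, 1620, 921 and 690.1 CPM in controls 1 to 5. LOS fetus 6 was the lowest and LOS fetus 1 the highest, so the LOS range enclosed the control range.

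LOC510798, inside the span between OSBPL5 and CARS, was the gene of that list called for a difference between alleles, with the paternal allele higher in both groups. Its maternal share averaged 27.1 ± 5.89% in LOS (n = 6) and 32.3 ± 8.35% in controls (n = 5). The log2 ratio of maternal over paternal reads was -1.49 ± 0.15 in LOS (edgeR adjusted p = 3.1e-07) and -1.10 ± 0.16 in controls (edgeR adjusted p = 5.8e-05). The share did not pass the test between groups (edgeR adjusted p = 0.999), and the total level had a log2 fold change of 0.14 ± 0.32.

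Channel partners and relatives of KCNQ1 were low, at most 2.53 CPM in any library, and factors known to act on imprinted domains were not called. Of 9 KCNE and KCNQ genes, 4 were tested, all lower in LOS by sign and 0 called, among them KCNE3 at -0.46 ± 0.29. Of 18 factors of DNA methylation, histone methylation and chromatin looping, 7 were higher and 11 lower by sign, with 0 called. The smallest p among them belonged to CTCF, a looping factor that binds imprinting control regions, at -0.17 ± 0.09, and to SMC1A, a cohesin subunit, at -0.20 ± 0.10. DNMT1, the maintenance DNA methyltransferase, was at -0.33 ± 0.20.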

How the data were processed

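Per the submitters' processing notes, the genome build was ARS-UCD1.2 and the authors' tools included Salmon 0.11.1, HISAT2 2.1.0, StringTie 2.1.4 and GATK, and the sources used here do not give their roles. Libraries were sequenced as 150 bp pairs with 33 M pairs planned, per the labels' protocols. The authors deposited expected counts (estimated reads per gene, not normalized), whole counts of reads per parental allele, and, for 4347 genes, expected counts multiplied by the allelic share, which held for 47817 of 47817 values checked at a tolerance of 0.001 (0 off).

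Expected counts were rounded and fitted in R 4.3.3 with edgeR 4.0.16: TMM scaling, filterByExpr, and the quasi-likelihood test, with terms for sex and for group, over all 11 libraries, with Benjamini-Hochberg adjustment over all genes and a threshold of 0.05. CPM are rounded counts per M of the TMM library size, with no correction for gene length. The allelic model had a term for each library, allele and allele by group, and covered autosomal genes that averaged at least 20 allelic reads per library and reached 10 in at least 3 libraries of each group. Each allele was tested from the deposited allele-specific expected counts, scaled by the TMM factors found for total counts. Single values were compared by exact two-sided permutation tests over libraries, and correlations by 100000 permutations. Scripts were tested on simulated data. Alternatives were DESeq2 1.42.0, voom and limma 3.58.1, other scaling and filters, a fit without sex, a replicate block, and fits that left out 1 library each. A group by sex term was added after the data were seen.

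The members, gene lists and tests were chosen with earlier results of these data known. Named genes are the 10 members; other genes on chromosome 29 between 48.0 and 49.7 Mb and imprinted genes near them; cell cycle, channel and repression lists, with up to 3 genes of smallest p each (6 for the other genes of chromosome 29); and the 5 genes correlating best with LOC112444897 and with CDKN1C. CDKN1A, CDKN1B, NGFR, MKI67 per library and the alleles of LOC510798 and DHCR7 were chosen after their values were seen. No sequence was used. Figures were drawn with matplotlib 3.10.9.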

Additional observations from a re-analysis of the deposited data

Results flagged for a closer look

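Among 36 sets of values (each member's level or maternal share in 1 group), 2 held a library far from the others, where chance gives about 1 in 20. The maternal share of NAP1L4 was 56.3% in control 1, with the other 4 controls between 50.4 and 52.0%. The level of CARS was 119.7 CPM in LOS fetus 6, with the other 5 LOS libraries between 97.4 and 104 CPM.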

How the results depend on the processing

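Members were called or not called alike under RLE scaling, DESeq2, limma voom, no filter on low counts, no sex term and the replicate block, apart from CD81 in controls with limma (adjusted p = 0.0584); the causes of the changes given here were not tested. Genes called between LOS and control numbered 5 with DESeq2 and 0 to 1 with a library left out. Between the sexes they numbered 22 with DESeq2, 2 with the replicate block and 3 to 7 with a library left out. For maternal against paternal alleles, limma called 311 genes in LOS and 237 in controls, and leaving out a library gave 444 to 590 and 373 to 528. For the allelic share, leaving out a library gave 0 to 1. LOC112444897 changed sign without the sex term (0.066) and in females (0.35), CDKN1C in males (0.12) and NAP1L4 in males (-0.11). Replicate numbers were not taken as pairs in the main fits. The deviations of same-numbered libraries correlated at 0.292, 0.183, -0.203, -0.197 and -0.0414. The control that matched best had the same number for LOS fetuses 1 and 2 and another number for LOS fetuses 3, 4 and 5. So few values cannot show whether the fetuses were paired. The replicate block turned TSSC4 to 0.047 (paternal allele 0.18), NAP1L4's maternal allele to 0.031, and the male over female difference to 0.32 for NAP1L4 and 0.17 for OSBPL5. Small differences changed sign with a library left out. These were LOC112444897 (-0.20 to 0.16), NAP1L4 (-0.046 to 0.062) and TSSC4 (-0.093 to 0.022) between LOS and control, and NAP1L4 (-0.046 to 0.068) and OSBPL5 (-0.099 to 0.027) between the sexes. NAP1L4's alleles in LOS ran from -0.068 to 0.0082. The log2 difference of the share ran from -0.11 to 0.061 for OSBPL5, -0.062 to 0.13 for CARS and -0.25 to 0.037 for TSSC4. The maternal allele ran from -0.029 to 0.21 for CARS and -0.17 to 0.019 for TSSC4, and the paternal one from -0.0094 to 0.14 for CARS, -0.12 to 0.12 for TSSC4 and -0.21 to 0.057 for LOC112444889. In percentage points, the difference of mean shares ran from -2.05 to 16.1 for KCNQ1, -2.15 to 1.18 for OSBPL5, -0.96 to 2.24 for CARS and -4.65 to 0.016 for TSSC4. The r of CDKN1C with LOC112444897 ran from -0.24 to 0.19 and was 0.60 without the farthest libraries. The r of KCNQ1 reads with LOC112444897 was planned over all 11 libraries, unless they fell into clusters. It was computed over the 8 libraries with under 100 reads, a cut made on the reads themselves. There it was 0.79 (permutation p = 0.0104, 0.0208 adjusted over the 2 relations computed). With a library left out it ran from 0.75 to 0.86, and it was 0.73 without the farthest libraries (permutation p = 0.107). It is not read as a relation, since 4 of the 8 are listed at 0. KCNQ1's share could not be recomputed over libraries with 10 or more reads, where 1 control was left. Depth limits KCNQ1, TSPAN32 and LOC112444889, whose allelic reads were under 100 in all libraries but the 3 at KCNQ1.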

Other observations

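The genes whose log2(CPM + 0.5) followed LOC112444897 most closely over the 11 libraries were TCEAL9 (Pearson r 0.952), KAZN (0.920), TBC1D8 (0.901), the assembled locus MSTRG.4530 (0.887) and LRMDA (0.886), and none of them lies on chromosome 29. Those closest to CDKN1C were LOC112441475 (0.869), the assembled locus MSTRG.11197 (0.837), LOC100849050 (0.836), LOC786553 (0.824) and the assembled locus MSTRG.11244 (0.820). These genes were the highest of 16904 tested and all share the 11 libraries and their scaling, so the values are a description with no test. The ratio of CDKN1C to LOC112444897 in CPM, not corrected for length, was 0.0104, 0.0516, 0.0160, 0.0547, 0.0944 and 0.0646 in LOS fetuses 1 to 6, against 0.0436, 0.0692, 0.0735, 0.0415 and 0.0668 in controls 1 to 5, so LOS fetuses 1 and 3 were below every control and LOS fetus 5 above.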
